A study of Mus musculus with 12 samples.

Results

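The genes described here are 8 collagen genes taken by their symbols from the 36186 genes of the deposited count table: Col6a1, Col6a2, Col6a3, Col6a6, Col8a1, Col12a1, Col14a1 and Col16a1. All 8 were found, and all 8 passed the filter on low counts in each comparison. Their levels were measured by RNA sequencing of whole mouse kidneys at embryonic stage E18.5, in 12 libraries of 4 genotypes on a mixed background. The genotypes were wild type (libraries 30, 37 and 55), homozygous mutant for the HoxA genes and heterozygous for the HoxC genes (Hoxa-/- Hoxc+/-, libraries 20, 31 and 33), the reciprocal Hoxa+/- Hoxc-/- (labelled AhCk_38, AhCk_110 and AhCk_115), and double homozygous mutant (Hoxa-/- Hoxc-/-, libraries 24, 27 and 29). By the labels, Hoxa stands here for Hoxa9, Hoxa10 and Hoxa11 together, and Hoxc for Hoxc9, Hoxc10 and Hoxc11. The labels call the double mutants homozygous for Hoxa11 as well, whereas the study describes the sequenced mutant kidneys as keeping Hoxa11 alleles. It also found no kidneys at E18.5 in mutants homozygous for all of these HoxA and HoxC genes. By the study's account, the kidneys called double mutant here thus kept Hoxa11 alleles, and the name only follows the labels. The labels do not tell which library has which alleles. The mutations are germline frameshifts in first exons present in every cell of the embryo. Levels are given in CPM, which put the libraries' counts on one scale, and a gene was called changed at an adjusted p under 0.05 in edgeR's quasi-likelihood test across all genes tested.

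Collagen VI is built from heterotrimers of an α1, an α2 and a long α3 chain, which assemble into beaded microfilaments in the pericellular matrix of stromal, muscle and nerve tissue. The α6 chain encoded by Col6a6, like the α5 chain of Col6a5, resembles α3 and can take its place in the trimer. Col12a1, Col14a1 and Col16a1 encode fibril-associated collagens with interrupted triple helices, which sit on the surface of collagen fibrils and link them to other matrix components. Col8a1 encodes a short-chain collagen that forms networks with the product of Col8a2, and so belongs to neither family although it is listed with them.

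On GRCm38.p6, Col6a1 (chr10:76708792-76726044) and Col6a2 (chr10:76595756-76623630) are neighbours on the minus strand, 85.2 kb apart. Col6a6 (chr9:105689417-105828246) lies 27.8 kb from Col6a5, which lies 27.9 kb from Col6a4, all on the minus strand. The remaining members are spread over the genome, with Col6a3 at chr1:90766860-90844001, Col8a1 at chr16:57624256-57754737, Col12a1 at chr9:79598987-79721141, Col14a1 at chr15:55307644-55520803 and Col16a1 at chr4:130047817-130099277. RefSeq promoter windows of the same build were at hand for 6 of the 8 genes, without Col12a1 and Col14a1. The 250 bases before the RefSeq start are shown for Col6a1, Col6a3 and Col16a1, which rose in the double mutants, and for Col8a1, which did not pass the test there. They read 5′ to 3′ on the gene's strand, from chr10:76726045-76726294 (minus strand) for Col6a1, chr1:90843972-90844221 (minus) for Col6a3, chr16:57754738-57754987 (minus) for Col8a1 and chr4:130047590-130047839 (plus) for Col16a1. Capitals mark the matches of the motifs named after them, on either strand.
Col6a1: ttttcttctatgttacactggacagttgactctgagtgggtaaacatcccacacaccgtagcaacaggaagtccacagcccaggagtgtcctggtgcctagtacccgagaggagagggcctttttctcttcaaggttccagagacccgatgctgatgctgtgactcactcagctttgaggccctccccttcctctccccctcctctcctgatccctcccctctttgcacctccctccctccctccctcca
Col6a3: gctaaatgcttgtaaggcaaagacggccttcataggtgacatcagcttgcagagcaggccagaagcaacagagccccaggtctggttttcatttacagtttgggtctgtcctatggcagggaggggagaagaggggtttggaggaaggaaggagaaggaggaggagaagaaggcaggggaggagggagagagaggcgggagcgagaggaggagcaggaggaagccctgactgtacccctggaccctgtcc
Col8a1: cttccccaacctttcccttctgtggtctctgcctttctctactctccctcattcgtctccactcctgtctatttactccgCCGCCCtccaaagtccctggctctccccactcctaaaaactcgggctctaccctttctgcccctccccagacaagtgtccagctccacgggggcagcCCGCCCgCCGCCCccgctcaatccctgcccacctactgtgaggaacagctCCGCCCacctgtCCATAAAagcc
Col16a1: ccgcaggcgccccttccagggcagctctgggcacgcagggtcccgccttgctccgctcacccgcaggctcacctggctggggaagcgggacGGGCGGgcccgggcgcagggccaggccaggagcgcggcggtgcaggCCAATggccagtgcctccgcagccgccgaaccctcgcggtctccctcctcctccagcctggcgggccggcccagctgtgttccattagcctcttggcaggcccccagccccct
The windows were searched on both strands for GGGCGG, a site of Sp1-type factors, for CCAAT, for TATAAA and for TTTATNG, letters of the kind bound by posterior Hox proteins. The reverse complement of TTTATNG can share letters with TATAAA. In these windows GGGCGG was found 3 times in Col6a2 and 2 times in Col6a6 but not in Col6a1 or Col6a3, and it was also in the windows of Col8a1 (4 times) and Col16a1 (1 time). It occurs in 32.7% of all 32851 windows of this length. TTTATNG was present in Col8a1 and in none of the other 5 windows, against 9.81% of all windows. CCAAT was present in Col16a1 alone, against 33.8% of all windows, and TATAAA in none of the 6, against 12.4%. These are matches of letters and were not tested for binding.

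Total counts ranged from 28616877 to 47067903 per library (median 39328488). Hoxa-/- Hoxc+/- library 20 stood apart, with the lowest total, the lowest scaling factor (0.905) and the lowest summed level of proximal tubule markers, 377 CPM against 918 to 2370.0 in wild type. Its stroma markers had the highest sum of all libraries, 2434 CPM against 1328 to 1631 in wild type. Cap mesenchyme markers summed to 439.8 CPM there (196 to 286 in wild type) and podocyte markers to 471 CPM (946 to 994). The 3 Hoxa+/- Hoxc-/- libraries were sequenced in another run than the other 9. All 3 wild type libraries came from males, judged by Xist and Y-linked transcripts, whereas 2 of the 3 double mutants, 2 of the 3 Hoxa-/- Hoxc+/- and 1 of the 3 Hoxa+/- Hoxc-/- libraries came from females. The Hoxa and Hoxc transcripts were still counted in the mutants (Hoxc10 at 29.1 to 37.8 CPM in double mutants and 50.2 to 66.9 in wild type), which does not test the genotypes because the alleles are small first-exon lesions.

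In the kidneys labelled homozygous mutant for both Hox groups, 7 of the 8 collagen genes were higher than in wild type. In double homozygous mutants against wild type, Col6a1 and Col6a2 were 2.75-fold and 2.73-fold higher, Col14a1 2.33-fold, Col6a3 1.92-fold, Col16a1 1.70-fold and Col12a1 1.51-fold. Col6a6 was 11.8-fold higher, from a low level. Col8a1 did not pass the test (1.06-fold). The median log2 fold change over the 8 genes was 1.08, beside -0.01 over all 15839 genes tested, and 6.31% of all genes tested were called higher. In whole-kidney RNA, more cells of a producing type and more RNA per cell cannot be told apart.

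**Figure D1:**
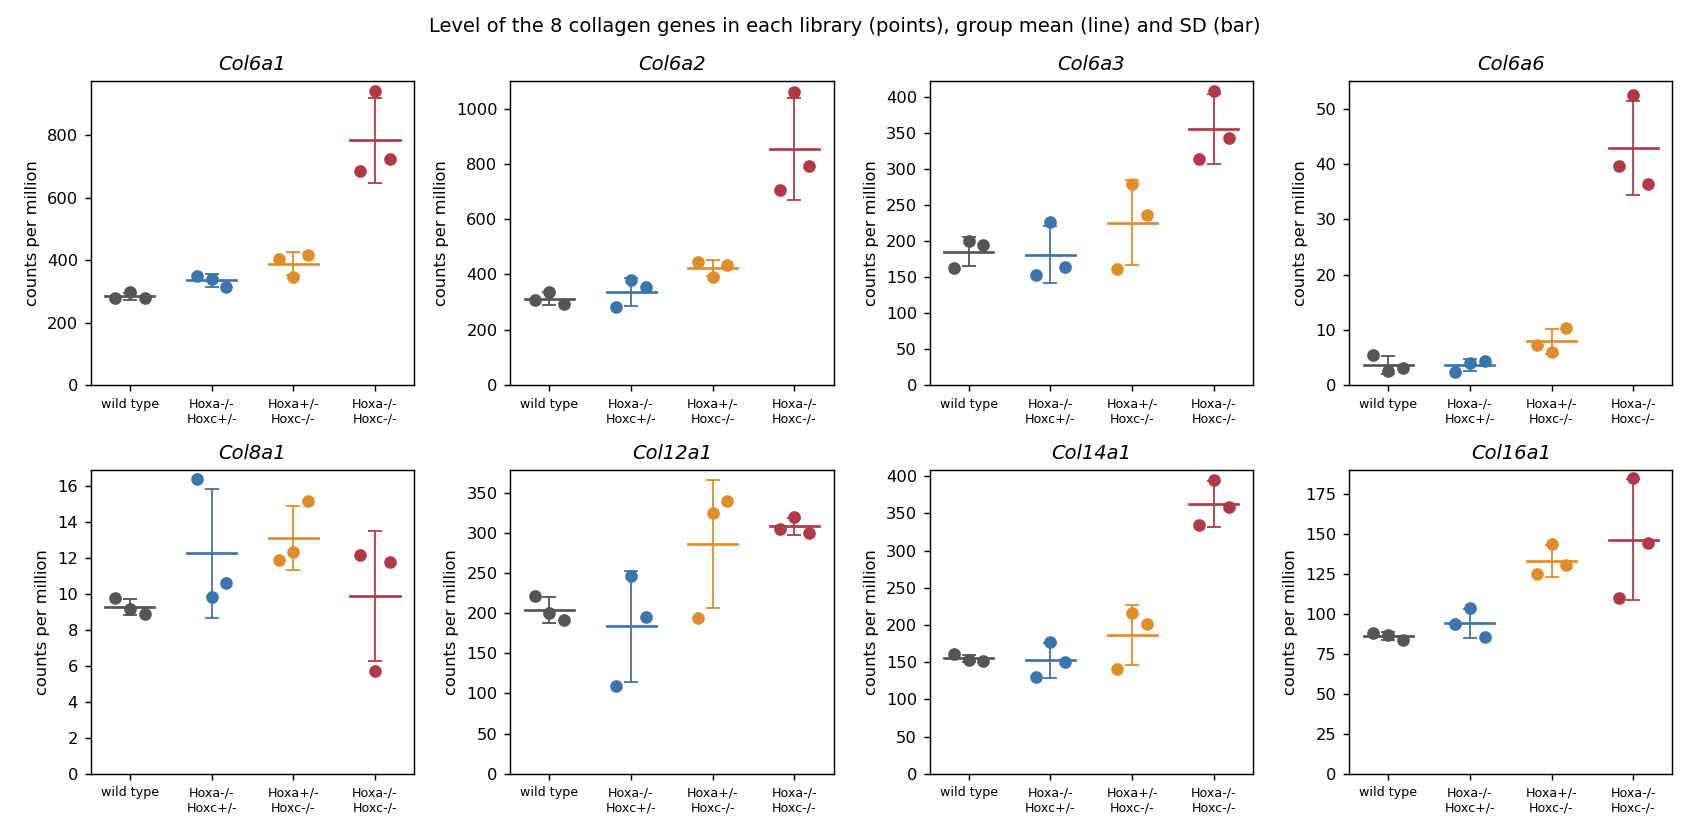
CPM (vertical axis, from 0) of each of the 8 genes in the 12 libraries (points) of the 4 genotypes (horizontal axis), with the group mean (line) and SD (bar, n = 3). In 7 of the 8 panels all 3 double mutant points lie above all 3 wild type points, and in that of Col8a1 they overlap.

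Col6a1, the α1 chain, stood at 278, 297 and 278 CPM in wild type libraries 30, 37 and 55 and at 686, 940.5 and 724 CPM in double mutant libraries 24, 27 and 29. It measured 351, 341 and 313 CPM in Hoxa-/- Hoxc+/- libraries 20, 31 and 33 and 404, 347 and 415 CPM in the 3 Hoxa+/- Hoxc-/- libraries, in the order given above. The double mutants were far above the other 3 groups, with no overlap, and the wild type libraries were the lowest. The rise over wild type was 1.46 on the log2 scale (SE 0.13, adjusted p = 0.00151, edgeR).

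Col6a2, the α2 chain, followed Col6a1 closely. It stood at 306, 337 and 295 CPM in wild type and 707, 1061 and 791 CPM in the double mutants. In Hoxa-/- Hoxc+/- kidneys it was at 281, 379 and 353 CPM, and in Hoxa+/- Hoxc-/- kidneys at 444, 392 and 436 CPM. Library 20 was the lowest of all 12 for Col6a2 but not for Col6a1. Library 27 was the highest for both genes. The rise in double mutants was 1.45 (SE 0.15, adjusted p = 0.00276, edgeR).

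Col6a3 encodes the α3 chain, the longest of the core chains, which carries most of the von Willebrand factor A domains of the molecule. Its wild type levels were 162, 199.7 and 195 CPM and its double mutant levels 315, 409 and 344 CPM. The values were 153, 227 and 164 CPM in Hoxa-/- Hoxc+/- and 162, 279 and 236 CPM in Hoxa+/- Hoxc-/- kidneys. Only the double mutants stood clear of the others, while wild type and both single-homozygous groups overlapped. The rise of Col6a3 (0.94, SE 0.12, adjusted p = 0.00551, edgeR) was smaller in size than those of its partners.

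Col6a6 showed the largest change of the 8 genes. It was near the bottom of the range in wild type, with 5.41, 2.49 and 3.02 CPM, and reached 39.7, 52.5 and 36.4 CPM in double mutants. Levels in Hoxa-/- Hoxc+/- kidneys were 2.39, 4.08 and 4.30 CPM, within the wild type range or just under it, and those in Hoxa+/- Hoxc-/- kidneys were 7.31, 5.96 and 10.4 CPM, all above wild type. The log2 fold change in double mutants was 3.56 (SE 0.29, adjusted p = 0.00131, edgeR), and it lay between 3.36 and 3.96 when any 1 of the 6 libraries was left out. The adjacent Col6a5, also an α3-like chain, was at 0.265, 0.138 and 0.446 CPM in wild type and at 9.35, 10.7 and 4.95 CPM in double mutants (log2 fold change 4.88, SE 0.45, adjusted p = 0.00173, edgeR). Its wild type level rested on 6 to 18 counts per library. Col6a4, next to it, did not pass the test: it stood at 19.02, 15.4 and 18.6 CPM in wild type and 16.0, 29.6 and 30.1 CPM in double mutants (0.51, SE 0.23, adjusted p = 0.173).

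**Figure D2:**
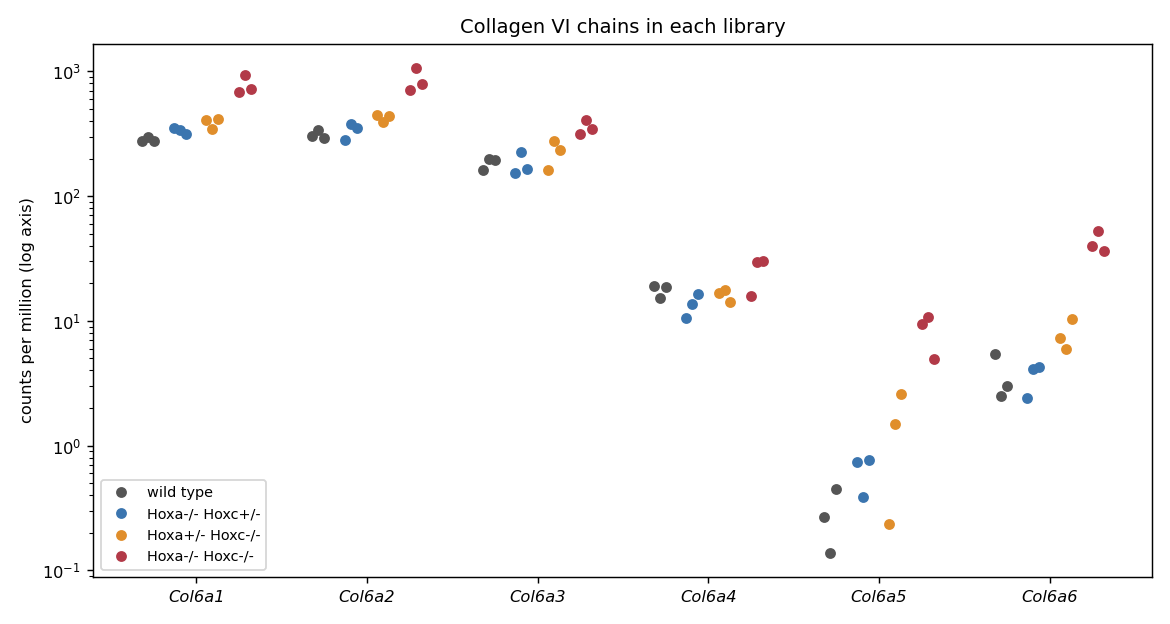
CPM on a log axis (vertical) of the 6 collagen VI chain genes (horizontal), each point 1 of the 12 libraries, coloured by genotype. Col6a1, Col6a2 and Col6a3 lie above the 3 alternative chains in each group, and the double mutants of Col6a5 and Col6a6 stand clear of the other genotypes.

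Per kilobase of the longest transcript, wild type levels ran from 69.4 ± 2.74 CPM per kb (SD, n = 3) for Col6a1 and 63.7 ± 4.52 for Col6a2 through 24.04 ± 0.755 for Col14a1, 18.4 ± 2.02 for Col6a3, 17.7 ± 1.38 for Col12a1 and 16.5 ± 0.435 for Col16a1 to 1.82 ± 0.0857 for Col8a1 and 0.415 ± 0.177 for Col6a6. The ranges of neighbours in this order overlapped for Col6a1 and Col6a2, Col6a3 and Col12a1, and Col12a1 and Col16a1. Within each library, however, Col6a2 per kb was under Col6a1, at a ratio of 0.883 to 0.947 in wild type and under 1 in all 12 libraries. This order rests on the transcript lengths used, 4912 bases for Col6a2 and 4100 for Col6a1. In counts not divided by length, the ratio was 1.06 to 1.13 in wild type. In double mutants Col6a6 reached 4.88 ± 0.971 CPM per kb, still under the 35.2 ± 4.81 of Col6a3. The 8 genes together took 1241 ± 41.2 CPM in wild type, 1300.0 ± 177 in Hoxa-/- Hoxc+/-, 1664 ± 156 in Hoxa+/- Hoxc-/- and 2862 ± 450.2 in double mutant libraries.

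Col14a1 had the clearest change of the fibril-associated collagens. Its product coats fibrils in matrices such as tendon and skin and binds small proteoglycans. Wild type libraries gave 161, 153 and 151 CPM and double mutants 335, 395 and 358 CPM, with a spread in each group that was small beside the difference. Hoxa-/- Hoxc+/- libraries gave 129.98, 177 and 151 CPM and Hoxa+/- Hoxc-/- libraries 140.4, 216 and 202 CPM, both groups spanning the wild type range. The rise in double mutants was 1.22 (SE 0.08, adjusted p = 6.7e-04, edgeR).

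Col12a1, which is found on fibrils of stroma under tension, rose less. It measured 222, 199.7 and 191 CPM in wild type and 305, 320.0 and 299 CPM in double mutants. Values of 109, 246 and 195 CPM in Hoxa-/- Hoxc+/- and 194, 324 and 339 CPM in Hoxa+/- Hoxc-/- kidneys were the widest spreads of the gene. Libraries 20 and AhCk_38 were the lowest of their groups for Col12a1, Col14a1 and Col6a3 alike. The rise of Col12a1 in double mutants (0.59, SE 0.08, adjusted p = 0.00636, edgeR) lost its call when all 12 libraries (adjusted p = 0.216) or the 9 libraries of 1 run (0.217) shared 1 estimate of the spread, and with Xist as a covariate it was 0.33 (adjusted p = 0.486).

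Col16a1 encodes a fibril-associated chain also found beside microfibrils and at cell surfaces. It stood at 87.8, 86.9 and 83.5 CPM in wild type and 109.7, 185 and 144 CPM in double mutants. The other mutants gave 93.6, 104 and 85.5 CPM (Hoxa-/- Hoxc+/-) and 125, 144 and 130.4 CPM (Hoxa+/- Hoxc-/-), the latter inside the double mutant range. The wild type libraries were close together and the double mutants wide, library 24 being lowest. The rise (0.77, SE 0.17, adjusted p = 0.0270, edgeR) lost its call without wild type library 37 (adjusted p = 0.0916), wild type library 55 (0.0958) or double mutant library 29 (0.0527), and with limma on the deposited log2 values (0.0722).

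Col8a1 was the exception. It was at 9.76, 9.16 and 8.91 CPM in wild type and at 12.2, 5.71 and 11.8 CPM in double mutants, which lay on both sides of wild type. The remaining libraries held 16.4, 9.82 and 10.6 CPM (Hoxa-/- Hoxc+/-) and 11.9, 12.3 and 15.2 CPM (Hoxa+/- Hoxc-/-), all above wild type. The double mutant difference was 0.09 (SE 0.27, adjusted p = 0.840, edgeR) and turned to -0.09 without double mutant library 24. Col8a2, which encodes the chain it assembles with, was called higher: 48.3, 43.8 and 46.4 CPM in wild type against 104, 114.96 and 110.5 CPM in double mutants (1.25, SE 0.07, adjusted p = 4.1e-04, edgeR).

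In 7 of the 8 genes every double mutant library lay above every wild type library, beside 17.3% of all genes tested. Within males, the log2 ratio of the 1 double mutant library 24 to the mean of the 3 wild type libraries was 1.27 for Col6a1, 1.18 for Col6a2, 0.76 for Col6a3, 3.45 for Col6a6, 1.11 for Col14a1, 0.58 for Col12a1, 0.35 for Col16a1 and 0.39 for Col8a1, with no test on 1 library. Markers of other compartments moved in the same comparison. The summed stroma markers went from 1328 to 1631 CPM over wild type libraries to 1897 to 2133 CPM in double mutants (4 of 8 markers called higher), smooth muscle and pericyte markers from 588 to 673 to 834 to 960.5 CPM (3 of 6), macrophage markers from 47.6 to 53.7 to 81.0 to 110.04 CPM (3 of 4), and podocyte markers from 946 to 994 to 1207 to 1606 CPM (3 of 4). Vim was the most abundant stroma marker, at 512, 659 and 631 CPM in wild type and 941, 1030 and 982 CPM in double mutants. Means of the stroma markers Meis2 (167 and 122 CPM) and Meis1 (78.2 and 70.8 CPM) were lower in double mutants, with 0 of the 8 called lower. Cap mesenchyme markers went from 196 to 286 to 49.9 to 157 CPM (3 of 5 called lower). The nuclear-retained RNAs Malat1, Neat1 and Kcnq1ot1 were all called lower, with sums of 125 to 160.4 CPM in wild type and 36.0 to 54.1 CPM in double mutants. Among markers of neighbouring tissues, liver markers summed to 4.16 to 5.94 and 9.21 to 27.1 CPM (2 of 5 called higher), skeletal muscle markers to 1.31 to 4.75 and 4.51 to 8.82 CPM (1 of 6), and Schwann cell markers to 2.54 to 2.62 and 3.38 to 5.53 CPM (1 of 3 tested). Wild type Col6a6 and Col8a1 in all groups lay near these levels. Endothelium markers summed to 652 to 698 CPM in wild type and 739.8 to 797 CPM in double mutants, without overlap, with none of 5 called. Of the other kidney lists, proximal tubule, loop of Henle and urothelium markers had no call, and 1 of 4 collecting duct markers was called lower. The part of these markers in the collagen changes was not tested.

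With the HoxC genes heterozygous, no change in these genes was called. In Hoxa-/- Hoxc+/- mutants against wild type, log2 fold changes ran from -0.15 (SE 0.28) for Col12a1 to 0.40 (SE 0.22) for Col8a1, with Col6a1 at 0.24 (SE 0.10), Col16a1 at 0.13, Col6a2 at 0.11, Col6a6 at -0.01 and both Col6a3 and Col14a1 at -0.03. None of the 8 passed edgeR's test, and none had an unadjusted p under 0.05. Across the transcriptome 0% of the 15789 genes tested were called, with 360 genes at an unadjusted p under 0.05 and 22 called by DESeq2, none of them a member. Col6a1 and Col8a1 lay above wild type in every library, beside 3.58% of all genes tested. Library 20 held the highest Col8a1 and the lowest Col6a2, Col6a3, Col6a6, Col12a1 and Col14a1 of its group, and without it the difference of Col12a1 was 0.11, that of Col6a3 0.07 and that of Col8a1 0.13. No marker of the cell type lists was called in this comparison, and the summed levels of every list overlapped wild type. Their part in these values was not tested.

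In the reciprocal mutants, with the HoxC genes homozygous mutant, 3 of the 8 genes were called higher. Col16a1 was 1.56-fold higher in Hoxa+/- Hoxc-/- kidneys than in wild type (log2 0.64, SE 0.07, adjusted p = 0.00987, edgeR), Col6a1 1.38-fold (0.46, SE 0.09, adjusted p = 0.0475) and Col6a2 1.36-fold (0.45, SE 0.09, adjusted p = 0.0476). These 3 genes stand beside 0.836% of the 15902 genes tested that were called higher. Col6a6 (1.13, SE 0.33, adjusted p = 0.120), Col8a1 (0.51, SE 0.13, adjusted p = 0.0870), Col12a1 (0.50, SE 0.20, adjusted p = 0.216), Col6a3 (0.29, SE 0.19, adjusted p = 0.423) and Col14a1 (0.27, SE 0.15, adjusted p = 0.355) did not pass the test. Hoxa+/- Hoxc-/- and double mutant kidneys were not tested against each other, and their library ranges overlapped for Col8a1, Col12a1 and Col16a1. In 5 genes, Col6a1, Col6a2, Col6a6, Col8a1 and Col16a1, every mutant library lay above every wild type library, beside 11.4% of all genes tested. Within males, the log2 ratio of the mean of the 2 mutant libraries to that of wild type was 0.53 for Col6a1, 0.49 for Col6a2 and 0.57 for Col16a1. It was 1.28 for Col6a6 and 0.54 for Col8a1. For Col6a3 (0.10), Col12a1 (0.39) and Col14a1 (0.14) the male libraries overlapped wild type. The mutants and wild type came from different sequencing runs, so run and genotype cannot be told apart here. The calls of Col6a1 and Col6a2 were lost when any 1 of the 6 libraries was left out (adjusted p 0.0627 to 0.189 and 0.0621 to 0.190), and after correction for GC content and length only Col16a1 was called (0.46, adjusted p = 0.0454). Col16a1 lost its call without wild type library 37 (adjusted p = 0.0792) or 55 (0.0658). None of the 8 was called when all 12 libraries shared 1 fit, or with Xist as a covariate. Without AhCk_38 the called members were Col12a1 (0.70), Col14a1 (0.43) and Col16a1 (0.67). No marker of the cell type lists was called in this comparison, but 5 summed levels did not overlap. Podocyte markers (1013 to 1187 CPM in the mutants, 946 to 994 in wild type), liver markers (6.82 to 32.3 and 4.16 to 5.94 CPM) and Schwann cell markers (2.76 to 4.11 and 2.54 to 2.62 CPM) were higher. Collecting duct markers (507 to 666 and 681 to 759 CPM) and the adipose sum (211 to 236 and 256 to 303 CPM) were lower. The adipose sum was almost all Fabp4 (means 222 and 284 CPM), and only 1 of its 3 genes was tested. In the same order, means of Adipoq were 0 and 0.0177 CPM and those of Plin1 0.0470 and 0.0254 CPM. Their part in the result was not tested.

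**Figure D3:**
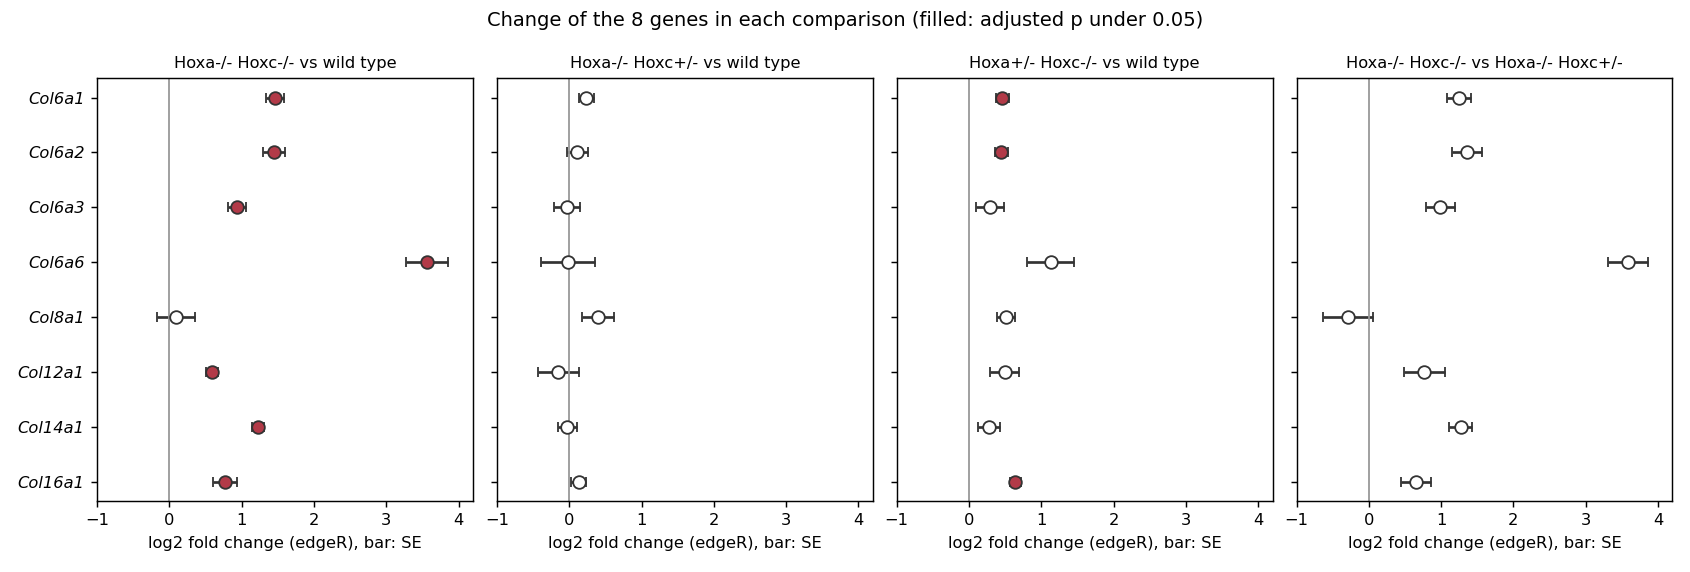
Log2 fold change (horizontal axis, edgeR, bar: SE) of the 8 genes in the 4 comparisons, filled where the adjusted p was under 0.05. Filled points number 7 in the first panel, 0 in the second, 3 in the third and 0 in the fourth, where 7 genes nonetheless lie at or above 0.65.

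The double mutants were also set against Hoxa-/- Hoxc+/- mutants. By the labels these groups differ in 1 set of HoxC alleles, but Hoxa11 dose may differ between them too, and its part cannot be told apart. Every double mutant library exceeded every Hoxa-/- Hoxc+/- library for 7 of the 8 genes, all but Col8a1, beside 9.95% of all genes tested. The log2 differences were 3.59 (SE 0.27) for Col6a6, 1.35 (SE 0.21) for Col6a2, 1.27 (SE 0.16) for Col14a1, 1.24 (SE 0.17) for Col6a1, 0.99 (SE 0.20) for Col6a3, 0.77 (SE 0.28) for Col12a1 and 0.65 (SE 0.21) for Col16a1, and -0.29 (SE 0.35) for Col8a1. None passed the threshold in edgeR (adjusted p = 0.0783 for Col6a6 and 0.0989 for Col14a1, the lowest), as 0% of the 15764 genes tested did, with 1787 genes and 7 of the members at an unadjusted p under 0.05 and 554 genes and 5 members called by DESeq2. Without library 20, edgeR called 5 members higher (Col6a1, Col6a2, Col6a3, Col6a6 and Col14a1, adjusted p 0.00231 to 0.0431) and 687 genes in all. Within females, the log2 ratio of the mean of the 2 double mutant libraries to that of the 2 Hoxa-/- Hoxc+/- libraries was 1.35 for Col6a1, 1.34 for Col6a2, 0.94 for Col6a3, 3.41 for Col6a6, 0.49 for Col12a1, 1.20 for Col14a1, 0.80 for Col16a1 and -0.22 for Col8a1. No marker of the cell type lists was called, but 6 summed levels did not overlap between double mutants and Hoxa-/- Hoxc+/- mutants. In that order, those of macrophages were 81.0 to 110.04 and 47.9 to 55.04 CPM, of podocytes 1207 to 1606 and 471 to 1087 CPM, of endothelium 739.8 to 797 and 558 to 677 CPM, and of skeletal muscle 4.51 to 8.82 and 1.48 to 4.48 CPM. Cap mesenchyme markers stood at 49.9 to 157 and 188 to 439.8 CPM and nuclear-retained RNAs at 36.0 to 54.1 and 63.9 to 129 CPM. The part of these markers in the collagen differences was not tested. The comparisons against wild type share the 3 wild type libraries, and this one shares the double mutants with the first, so their values are not independent of each other.

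Ratios of counts within a library, which do not depend on its scaling, showed how far the chains moved in step. The log2 ratio of Col6a2 to Col6a1 was 0.13 ± 0.05 (SD, n = 3) in wild type and 0.12 ± 0.07 in double mutants. The ratio of Col6a3 to Col6a1 was -0.77, -0.57 and -0.51 in wild type and -1.12, -1.20 and -1.08 in double mutants, lower in all 3. That of Col14a1 to Col12a1 was -0.46, -0.38 and -0.33 in wild type and 0.13, 0.31 and 0.26 in double mutants, higher in all 3. The exact two-sided permutation test gave p = 0.6 for the first ratio and p = 0.1 for both of the others (differences -0.51 and 0.62), the smallest that 3 against 3 libraries allow, so none could pass 0.05. Over the 9 tests of this family the adjusted values were 0.8, 0.3 and 0.3. In Hoxa+/- Hoxc-/- libraries the ratio of Col14a1 to Col12a1 went the other way, to -0.60 ± 0.14 (difference -0.21, exact permutation p = 0.1, adjusted 0.3), and Col6a3 to Col6a1 ranged from -1.32 in library AhCk_38 to -0.32 in library AhCk_110. In library 20 the ratio of Col6a2 to Col6a1 was -0.32 and that of Col14a1 to Col12a1 was 0.25, outside the range of the other Hoxa-/- Hoxc+/- and of all wild type libraries.

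**Figure D4:**
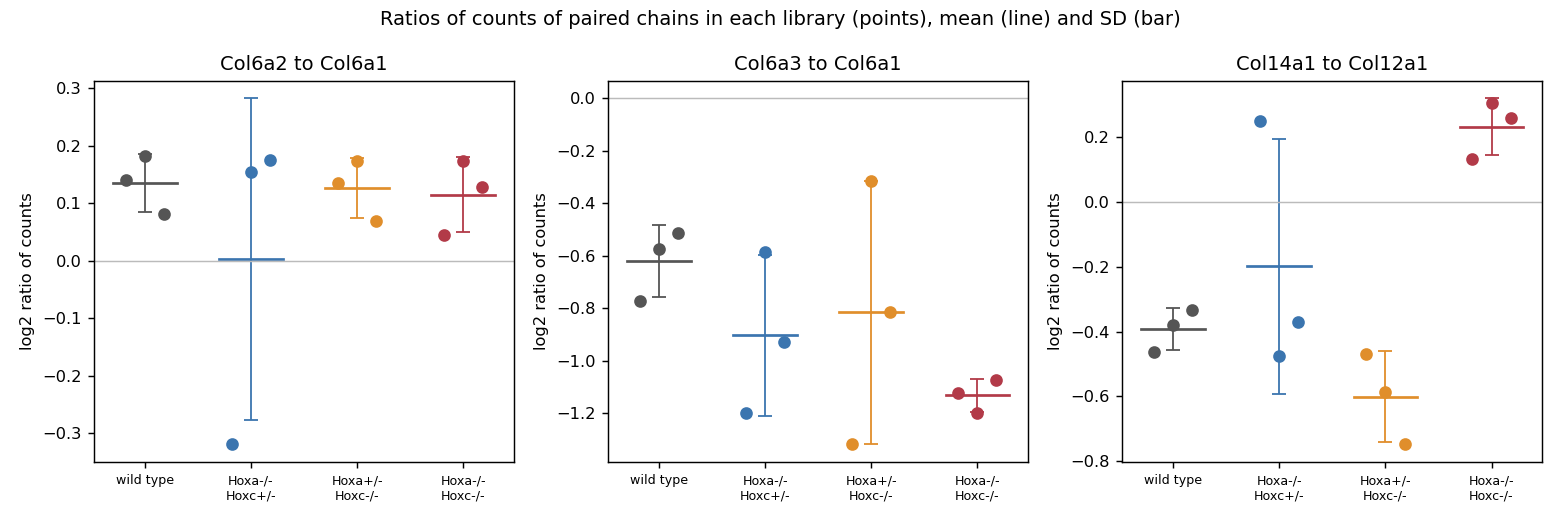
Log2 ratio of counts (vertical axis) of Col6a2 to Col6a1, Col6a3 to Col6a1 and Col14a1 to Col12a1 in each library (points) by genotype (horizontal axis), with the mean (line) and SD (bar, n = 3). Double mutants sit under wild type for Col6a3 to Col6a1 and above it for Col14a1 to Col12a1, and overlap it for Col6a2 to Col6a1.

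Among the other chains of these families, 3 of 8 tested genes were called higher and none lower in double mutants against wild type, beside 6.31% and 7.4% of all genes tested. Besides Col6a5 and Col8a2 this was Col9a2, a chain of the fibril-associated collagen IX of cartilage (8.83, 8.05 and 9.60 CPM in wild type, 11.5, 18.4 and 16.7 CPM in double mutants, log2 0.82, adjusted p = 0.0282, edgeR). Its partner chains did not pass the test, with -0.39 for Col9a1 (adjusted p = 0.586) and -0.65 for Col9a3 (adjusted p = 0.0944). The same held for Col22a1 (1.09, adjusted p = 0.121), Col20a1 (-0.05, adjusted p = 0.859) and Col6a4. Col19a1, at 0.0530 to 0.309 CPM, was under the filter, and Col21a1 was not analysed here. In Hoxa+/- Hoxc-/- kidneys only Col8a2 of this list was called (0.64, SE 0.10, adjusted p = 0.0274), and in the comparisons without calls across the transcriptome none was.

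Transcripts of matrix proteins that bind collagens, of collagen receptors and of processing enzymes formed another list. Of 24 tested, 12 were called higher and none lower in double mutants, with a median log2 fold change of 0.43, beside 6.31% of all genes tested called higher and 7.4% called lower. The largest rises were those of Tnxb, encoding tenascin-X, which binds collagen fibrils and their associated collagens (27.6, 29.4 and 19.4 CPM against 2.81, 2.58 and 3.02 CPM, log2 3.18, SE 0.19, adjusted p = 4.1e-04, edgeR), of Comp, a cartilage matrix protein, at a low level (1.38, 1.58 and 1.07 against 0.212, 0.231 and 0.272 CPM, log2 2.48, SE 0.31, adjusted p = 0.00469), and of Dcn, the proteoglycan decorin, which binds collagen VI and collagen XIV (347, 511 and 368 against 105, 95.0 and 89.5 CPM, log2 2.08, SE 0.16, adjusted p = 9.2e-04). The collagen VI receptors Antxr1 (0.64, adjusted p = 0.00516) and Antxr2 (0.54, adjusted p = 0.0327) and the linker Matn2 (1.43, adjusted p = 0.00108) were called as well. The integrin subunits Itga1 (0.31), Itga2 (0.09), Itga10 (-0.78), Itga11 (0.56) and Itgb1 (0.09) and the collagen VI receptor Cspg4 (0.21) were not. In Hoxa+/- Hoxc-/- kidneys 2 of 24 were called higher, Matn2 (0.65) and Postn (0.69), beside 0.836% of all genes tested.

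**Figure D5:**
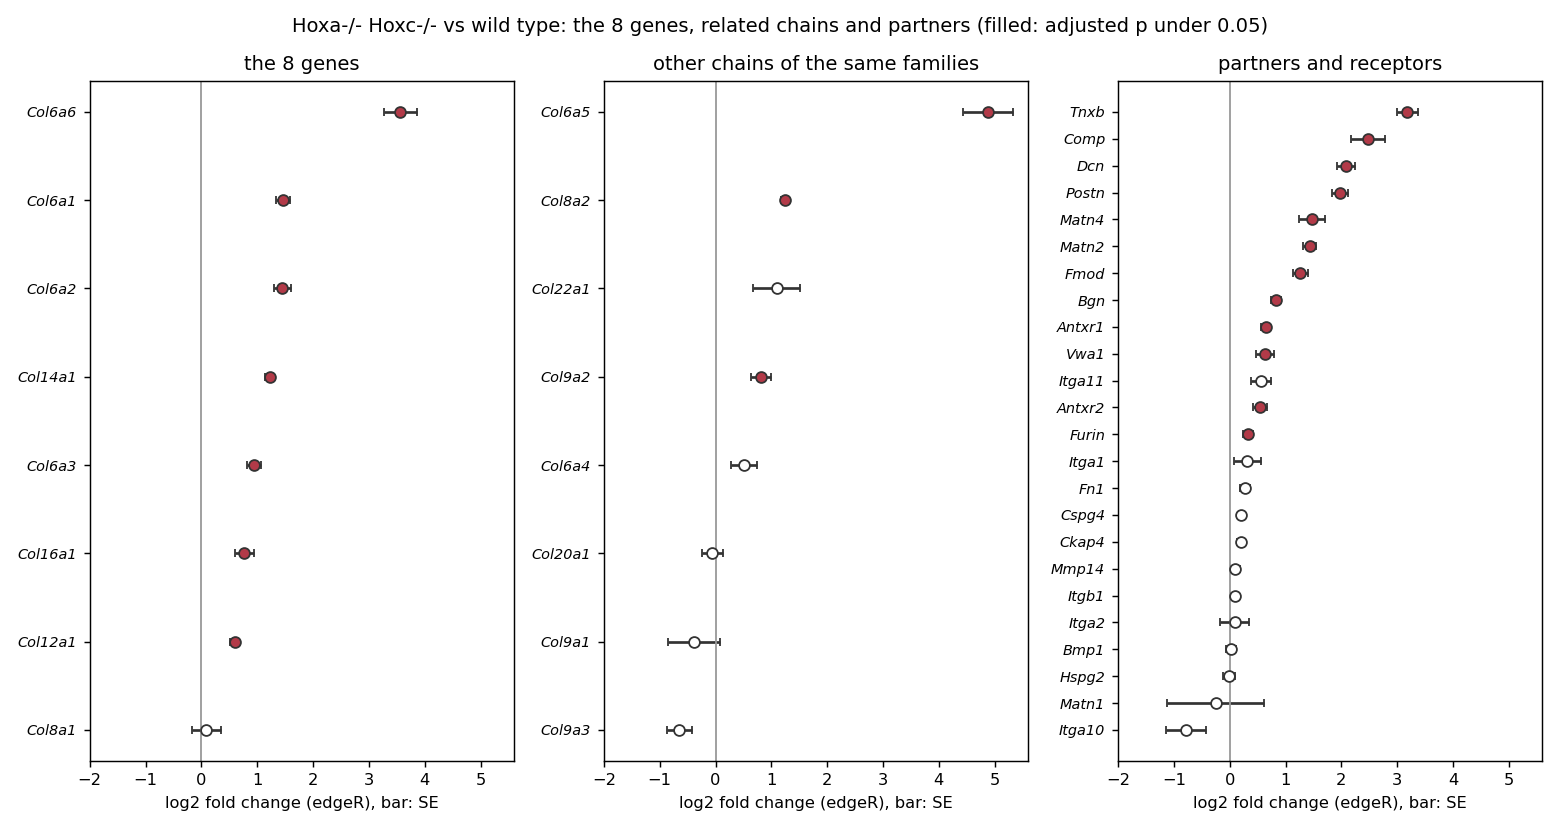
Log2 fold change (horizontal axis, edgeR, bar: SE) in double homozygous mutants against wild type of the 8 genes, of 8 other chains of their families and of 24 partners and receptors, filled where the adjusted p was under 0.05. All filled points lie to the right of 0, from 0.33 for Furin to 4.88 for Col6a5.

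The remaining collagen genes moved in both directions. Of 26 tested, 7 were called higher and 3 lower in double mutants, with a median of 0.24, beside 6.31% of all genes tested called higher and 7.4% called lower. The largest rises were in fibril-forming chains, Col5a3 (4.15 ± 0.701 CPM in wild type, 24.5 ± 6.69 in double mutants, SD, n = 3, log2 2.56), Col1a1 (829 ± 25.4 and 3049 ± 148, log2 1.88) and Col3a1 (1546 ± 98.9 and 4549 ± 559, log2 1.56). The falls were in Col11a2 (5.97 ± 2.38 and 0.819 ± 0.539, log2 -2.87, adjusted p = 0.0189, edgeR), Col27a1 (31.1 ± 1.25 and 14.2 ± 1.33, log2 -1.13) and Col24a1 (5.73 ± 1.10 and 3.27 ± 0.392, log2 -0.81), which encode fibril-forming chains found in cartilage or bone. Summed cartilage markers were 46.2 to 83.8 CPM in wild type and 13.8 to 52.2 CPM in double mutants, with none of 3 called.

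Across the 12 libraries the 7 genes other than Col8a1 varied together, as a description over libraries that share genotype, run and depth. Pearson's r of log2 CPM was 0.97 for Col6a1 with Col6a2, 0.96 for Col6a3 with Col14a1, 0.95 for Col6a1 with Col6a6 and lowest at 0.54 for Col6a1 with Col12a1. Col8a1 had r between -0.37 and -0.18 with the others. The 3 genes most alike in pattern among 16260 were Mvp (0.98), Col3a1 and Prrx1 for Col6a1, Steap3, Col3a1 and Col6a1 for Col6a2, Emilin2, Col14a1 and Nid2 for Col6a3, and Prss35 (0.99), Csf1r (0.99), itself in the macrophage list, and Ntrk3 for Col6a6. For Col12a1 they were Flna (0.95), Neo1 and Itga3, for Col14a1 Col5a2 (0.97), Fam174b and Laptm5, for Col16a1 Galnt6 (0.95), Nptxr and Ski, and for Col8a1 Plch1 (0.92), Kazald1 and Chrnd.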

How the data were processed

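RNA from E18.5 whole kidneys was sequenced as 12 libraries, 3 per genotype, numbered separately in the labels. The authors mapped the reads to mm10 and, in Strand NGS, discarded those with several alignments. The aligner and the counting step are not given in the sources used here. The deposited table holds expected counts per gene, with fractions, which were rounded. The authors also deposited normalized values on a log2 scale, centred per gene, used only for an alternative.

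Counts were tested with edgeR 4.0.16 in R 4.3.3 (quasi-likelihood, TMM, filterByExpr with a minimum count of 10 and total of 15), in fits of the 6 libraries compared, and p-values were adjusted by Benjamini-Hochberg across the genes of that fit. The study named the Audic-Claverie test, which models counting error and is an alternative here. CPM were scaled by TMM over the 12 libraries. Ratios were compared by exact permutation over libraries. Library size, spread between embryos and the 3 libraries per group limit the precision, and counts without molecular identifiers are not independent molecules.

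Results were recomputed with DESeq2 1.42.0, limma 3.58.1, scaling by RLE or by total counts, a filter of at least 1 count, shared fits, Xist as a covariate (prior count 0.5), a correction for GC content and length in 20 bins (94.3% to 94.7% of tested genes had both), the Audic-Claverie test on summed counts and leaving out each library. Values within a sex were added after the data were seen. The steps were tested on simulated data. The labels do not say whether libraries of a genotype are from different litters, and p-values measure the spread between these libraries. Gene positions and promoters came from RefSeq, and gene strands and transcript lengths from GENCODE, all on GRCm38.p6. For correlations, 0.1 CPM was added before log2. Python 3.11.15 and matplotlib 3.10.9 drew the plots. The members and lists were chosen with earlier results of these data known. Named genes were the members, the other chains of their families, and the 3 largest called rises and falls among partners and among remaining collagens, and the 3 genes of highest correlation with each member. Antxr1, Antxr2, Matn2, the integrins, Cspg4, Postn and Furin were named after their values were seen.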

Additional observations from a re-analysis of the deposited data

How the results depend on the processing

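The fold changes of the 8 genes were recomputed 480 times under alternative settings; direction and side of the threshold held in 398, while 31 lost a call, 33 gained one and 18 changed sign, none of these in a called gene. Against wild type, Col6a1, Col6a2, Col6a3, Col6a6 and Col14a1 were called higher in double mutants in each alternative run and with each library left out. The number of called genes in that comparison (2171) was 3380 with DESeq2, 1190 with all 12 libraries in the fit, 1009 with the Xist covariate, 1215 with limma, 690 with the 9 libraries of 1 run and 12089 with the Audic-Claverie test, which holds no term for spread between embryos; leaving out a library gave 535 to 3386 (3386 without wild type 30, 535 without wild type 37, 633 without wild type 55, 793 without double mutant 24 and 1101 without double mutant 27). Col8a1 ranged from -0.086 to 0.37 with a library left out.

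For Hoxa-/- Hoxc+/- against wild type, called genes (0) were 22 with DESeq2, 2 with all 12 libraries, 1 with limma and 0 to 8 with a library left out. Signs changed for Col6a2 (-0.022) and Col16a1 (-0.0090) with the Xist covariate, for Col6a3 (0.091), Col6a6 (0.087) and Col14a1 (0.074) with the GC and length correction, and for Col6a6 with limma (0.017). With a library left out, Col6a3 ranged from -0.23 to 0.074, Col6a6 from -0.23 to 0.39, Col12a1 from -0.42 to 0.11 and Col14a1 from -0.15 to 0.073. For Hoxa+/- Hoxc-/- against wild type, called members (3) were 5 with DESeq2, 0 with all 12 libraries, 0 with the Xist covariate, 1 with limma, 1 with the GC and length correction and 0 to 3 with a library left out (0 without wild type 37 or 55, 1 without AhCk_110 or AhCk_115, 2 without wild type 30). Called genes (376) were 1318, 149, 134, 158 and 132 in the same order, and 60 to 549 with a library left out; Col6a3 was -0.022 with the GC and length correction.

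For double mutants against Hoxa-/- Hoxc+/-, called members (0) were 5 with DESeq2, 1 with a filter of only 1 count, 5 with all 12 libraries, 6 with the Xist covariate, 1 with the GC and length correction and 5 with the 9 libraries of 1 run; called genes (0) were 554, 1, 540, 651, 1 and 181 in the same order and 1 with limma. Leaving out a library gave 0 to 5 members and 0 to 687 genes, the highest without library 20. With a library left out, the difference in the Col6a2 to Col6a1 ratio ranged from -0.049 to 0.016 (double mutants), -0.22 to 0.030 (Hoxa-/- Hoxc+/-) and -0.035 to 0.020 (Hoxa+/- Hoxc-/-), that in Col6a3 to Col6a1 from -0.45 to 0.056 (Hoxa+/- Hoxc-/-) and that in Col14a1 to Col12a1 from -0.032 to 0.33 (Hoxa-/- Hoxc+/-). The cause of these shifts was not tested. Differences in Col6a5 and Comp rest on few counts in wild type.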
